A study of Mus musculus with 13 samples.

Results

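The genes described here are Igll1, Vpreb1, Vpreb2, Vpreb3, Cd79a and Cd79b, 6 genes that encode parts of the pre-B cell receptor or, in the case of Vpreb3, a relative of its surrogate light chain. They were chosen by name: every probe set annotated to one of these symbols on either array type was taken, whatever its value. That gave 6 of the 21579 genes named on the 2 array types. On the Mouse Genome 430 2.0 array they had 7 of 45101 probe sets, of which 6 name a single gene and 1 names both Vpreb1 and Vpreb2. On the Mouse Gene 1.0 ST array they had 6 of 35556 probe sets, 1 for each gene.

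The series measured RNA of B3 cells, a mouse pre-B cell line, on 13 Affymetrix arrays. Every culture carried a retroviral MSCV vector with an internal ribosomal entry site and GFP. On the 430 2.0 array, 2 cultures expressed wild-type Ikaros with a haemagglutinin tag and 2 expressed 159A, an Ikaros mutant that cannot bind DNA, with the same tag, all taken 48 h after infection. On the Gene 1.0 ST array, cells with tagged Ikaros fused to the hormone-binding domain of the oestrogen receptor (Ikaros-ERt2) were exposed to 4-hydroxytamoxifen for 2 h (3 arrays) or 6 h (3 arrays), and cells with the domain alone (vector-ERt2) were exposed to the same drug (3 arrays, labelled 6 h). Ikaros, the product of Ikzf1, is a zinc finger protein of lymphoid cells that binds DNA and can silence or activate genes. The 2 h samples have no vector sample of their own time, and no Ikaros-ERt2 sample without the drug was analysed here. At 2 h the construct and the exposure time therefore cannot be told apart. In the comparison of 6 h with 2 h, an effect of Ikaros and one of exposure time alone cannot be told apart either. The labels speak of biological replicates but name no separate cultures, and a p-value here covers the spread among these samples alone, which may be technical. The labels also do not say whether GFP-positive cells were sorted.

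A pre-B cell has rearranged its immunoglobulin heavy chain but not yet its light chain. At this stage the heavy chain pairs with a surrogate light chain made of lambda5, the product of Igll1, and a VpreB protein, the product of Vpreb1 or Vpreb2. The assembled receptor signals through CD79a (Ig-alpha) and CD79b (Ig-beta), transmembrane chains with cytoplasmic tyrosine motifs that mature B cells keep using with a conventional light chain. Surrogate light chain genes are switched off as pre-B cells stop dividing and move on to light chain rearrangement, and in the mouse Ikaros is known to take part in silencing Igll1. VpreB3 binds free light chains inside B-lineage cells and is not part of the receptor at the cell surface.

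The stretches of 250 bases before the annotated starts of Igll1, Vpreb1, Vpreb2 and Cd79a are shown because Igll1 and both VpreB genes moved together in these data while Cd79a did not pass any test. They come from RefSeq on build GRCm38.p6 and are written 5′ to 3′ along the gene. Capitals mark GGGAA, a motif of Ikaros binding sites, and CAGGTG, an E-box of the kind bound by E2A, on either strand. Shorter or variant forms of these motifs, such as GGGA, were not searched or marked. Neither motif overlaps the other here.
Igll1, chr16:16863986-16864235, minus strand: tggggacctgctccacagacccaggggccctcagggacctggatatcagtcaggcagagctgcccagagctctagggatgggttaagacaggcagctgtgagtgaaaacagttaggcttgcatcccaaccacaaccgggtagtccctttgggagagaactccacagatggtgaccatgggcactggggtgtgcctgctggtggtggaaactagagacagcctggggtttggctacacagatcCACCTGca
Vpreb1, chr16:16869256-16869505, minus strand: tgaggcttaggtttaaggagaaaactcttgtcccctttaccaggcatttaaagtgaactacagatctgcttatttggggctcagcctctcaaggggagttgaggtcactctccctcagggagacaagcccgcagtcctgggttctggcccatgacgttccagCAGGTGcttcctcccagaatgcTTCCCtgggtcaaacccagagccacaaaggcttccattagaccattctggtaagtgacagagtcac
Vpreb2, chr16:17980315-17980564, plus strand: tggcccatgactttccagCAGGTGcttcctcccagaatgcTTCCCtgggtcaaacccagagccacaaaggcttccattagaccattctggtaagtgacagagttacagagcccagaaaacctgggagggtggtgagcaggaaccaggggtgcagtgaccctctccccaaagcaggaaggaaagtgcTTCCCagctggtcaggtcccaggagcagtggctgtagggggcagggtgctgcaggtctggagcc
Cd79a, chr7:24897247-24897496, plus strand: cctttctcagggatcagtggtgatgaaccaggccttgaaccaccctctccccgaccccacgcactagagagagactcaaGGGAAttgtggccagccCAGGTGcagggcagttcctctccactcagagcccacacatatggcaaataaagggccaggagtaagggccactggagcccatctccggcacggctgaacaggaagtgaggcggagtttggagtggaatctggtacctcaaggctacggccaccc
The Igll1 stretch held no GGGAA and 1 CAGGTG, which begins 8 bases before the start. The Vpreb1 stretch held 1 of each, at -66 and -88 relative to the start. The Vpreb2 stretch held 2 GGGAA, at -210 and -64, and 1 CAGGTG at -232. In Cd79a, GGGAA began at -171 and CAGGTG at -154. The Vpreb3 stretch, not printed, held 2 GGGAA and no CAGGTG. Among 32817 stretches of the same length before mouse gene starts, 56.2% held GGGAA and 17.2% CAGGTG. A match to these letters is a description of the sequence and not a shown binding site. Of the 5 stretches, those of Vpreb1 and Vpreb2 were near copies: shifted by 144 bases, 104 of 106 overlapping bases were identical (98.1%), with 91 in an unbroken run. The best ungapped overlaps of the other pairs reached 37.3% to 42.3%.

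Over all probe sets, arrays of the same group had a Pearson r of 0.987 to 0.995 on the 430 2.0 array and 0.989 to 0.994 on the Gene 1.0 ST array. All values below are deposited log2 values, and levels were not set side by side between the array types. The transduced gene itself was measured first. Ikzf1 was at 13.39, 13.22 and 13.22 in Ikaros-ERt2 cells at 2 h and at 13.31, 13.22 and 13.25 at 6 h, against 9.16, 9.25 and 9.39 in vector-ERt2 cells. Vector replicate 1 is a vector sample by its title although 1 of its label fields gives the inducible construct, and its Ikzf1 value stood with the other vector arrays. Without it, 4 of the 6 genes still passed the test at 6 h, and 0 passed at 2 h, where 82 genes of all did and 1434 were at an unadjusted p under 0.05 by limma. At 6 h, 335 to 714 genes of all passed in the fits that leave out 1 array. On the 430 2.0 array, where both constructs encode Ikaros, 1 Ikzf1 probe set read 12.00 and 12.08 in Ikaros cells against 11.82 and 11.61 in 159A cells, and the other read 4.11 and 4.77 against 12.83 and 12.73. Which part of the Ikzf1 transcript each probe set reads is not given in the sources used here. Of the B-lineage markers, 6 of the 6 on each array type were above the filter on low genes.

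At 6 h, all 3 surrogate light chain genes and Vpreb3 were lower in Ikaros-ERt2 than in vector-ERt2 cells, and the Cd79 genes did not pass the test. That is 4 of 6 genes, all lower, where 5.78% of the 11963 genes tested passed in either direction and 3.2% were lower (limma, Benjamini-Hochberg adjusted p under 0.05 over all genes tested). At 2 h, Vpreb1 alone passed, 1 of 6 genes and lower, against 1.86% of all genes in either direction and 1.1% lower. Between the 6 h and the 2 h samples 4 of 6 differed, with Igll1, Vpreb1 and Vpreb2 lower and Cd79b higher at 6 h, against 0.903% of all genes, 0.527% lower and 0.376% higher. Of the genes that passed in this step, 41.7% were higher, and 27.8% were higher once each array was centred on its median. At 48 h, Igll1 and Vpreb1 were lower and Cd79b was higher in Ikaros than in 159A cells, 3 of the 5 genes with a probe set of their own, against 14.8% of the 10916 genes tested, 8.47% lower and 6.38% higher. The median change of the 6 genes was -0.23 at 2 h and -0.56 at 6 h, against -0.01 and 0.00 for all genes tested, and at 48 h it was -0.08 for the 5 genes, against 0.00. In RNA from a whole culture, fewer cells that express a gene and less RNA of it per cell cannot be told apart. The 2 h and 6 h comparisons share the vector arrays. The 48 h calls rest on all 4 arrays: without any 1 of them, 0 of 10916 genes passed limma's adjusted threshold, with 2165 to 3668 at an unadjusted p under 0.05, and all 3 genes were among the latter in each case.

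**Figure D1:**
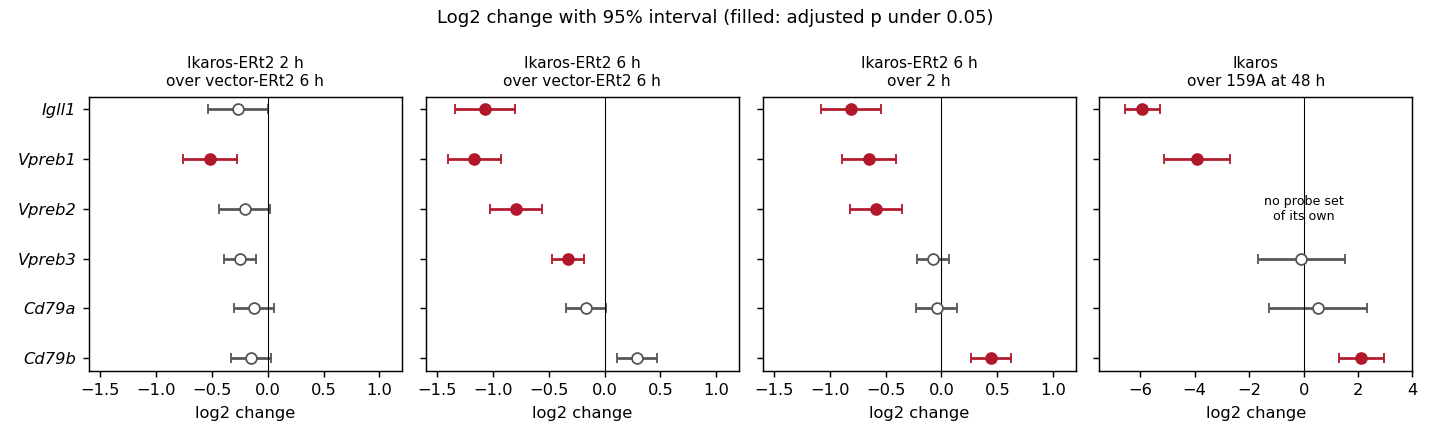
Log2 change (x axis) of each gene (y axis) in 4 comparisons, with 95% intervals as bars and filled points for an adjusted p under 0.05; the x range of the 48 h panel is wider. Igll1, Vpreb1 and Vpreb2 lie left of 0 in every panel that has them, from -0.21 to -1.17 on the Gene 1.0 ST array and at -5.92 and -3.92 on the 430 2.0 array, and Cd79b is at 0.29 at 6 h and at 2.12 at 48 h.

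Igll1, which encodes the lambda5 portion of the surrogate light chain, showed the widest change of the 5 genes measured singly at 48 h. It read 12.97, 12.83 and 12.98 in Ikaros-ERt2 cells at 2 h and 12.19, 12.37 and 11.80 at 6 h, against 13.22, 13.15 and 13.21 in vector-ERt2 cells. All 3 groups were apart from each other. The change at 2 h was -0.26 ± 0.12 (log2, standard error of the fit) and missed the threshold (limma, adjusted p = 0.368). At 6 h it was -1.07 ± 0.12, a 2.11-fold lower value (limma, adjusted p = 0.000776) and the 20th lowest change of 11963 genes. The step between the times, 6 h over 2 h, was -0.81 ± 0.12 (limma, adjusted p = 0.0183), the 11th lowest. This step lost its call without replicate 1 or 3 of the 2 h group (limma, adjusted p = 0.115 and 0.0591) or replicate 1 of the 6 h group (0.055).

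At 48 h the Igll1 probe set 1420176_x_at read 8.94 and 8.99 in Ikaros cells, against 14.67 and 15.11 in 159A cells. The change of -5.92 ± 0.19 is a 60.6-fold lower value (limma, adjusted p = 0.018), the 13th lowest of 10916 genes. The suffix x marks a probe set whose probes may also bind other transcripts. The second Igll1 probe set, 1420177_at, read 2.38 on all 4 arrays, near the lowest value of the array type, 2.19, so it could show no difference. With the mean of both probe sets in place of the brighter one the change was -2.96 (limma, adjusted p = 0.0159). Without 1 array at a time the change of the brighter probe set was between -6.14 and -5.70, at an adjusted p of 0.0809 to 0.199.

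Vpreb1, which encodes the other portion of the surrogate light chain, was the one gene of the 6 to pass at 2 h. It read 9.35, 9.38 and 9.19 in Ikaros-ERt2 cells at 2 h and 8.56, 8.88 and 8.53 at 6 h, against 9.98, 9.71 and 9.79 in vector-ERt2 cells. Every 2 h array was below every vector array and above every 6 h array. At 2 h the change was -0.52 ± 0.11 (limma, adjusted p = 0.0389) and at 6 h -1.17 ± 0.11, a 2.24-fold lower value (limma, adjusted p = 3e-04) and the 11th lowest of all. The 6 h over 2 h step was -0.65 ± 0.11 (limma, adjusted p = 0.0282). The 2 h call held in 2 of 9 fits that leave out 1 array, those without replicate 2 or 3 of the 6 h group, and the adjusted p of the others was 0.0575 to 0.154. The step call held in 2 of 9, without replicate 2 of the 6 h group or replicate 1 of the vector group, and its other adjusted p-values were 0.0555 to 0.147.

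Vpreb2, which encodes the alternative VpreB protein, was lower at 6 h. It read 8.76, 8.74 and 8.55 at 2 h and 8.01, 8.23 and 8.06 at 6 h, against 9.08, 8.89 and 8.70 in vector-ERt2 cells. The 2 h and vector arrays overlapped, and all 6 h arrays were below both. The change was -0.21 ± 0.10 at 2 h (limma, adjusted p = 0.417) and -0.79 ± 0.10 at 6 h, a 1.73-fold lower value (limma, adjusted p = 0.00154). The 6 h over 2 h step was -0.59 ± 0.10 (limma, adjusted p = 0.03). That step held its call in 3 of 9 fits without 1 array, without replicate 2 of the 6 h group or without replicate 1 or 3 of the vector group, and the others gave 0.0587 to 0.16. Vpreb1 and Vpreb2 are closely similar genes, and whether their probe sets read some of the same RNA was not tested.

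**Figure D2:**
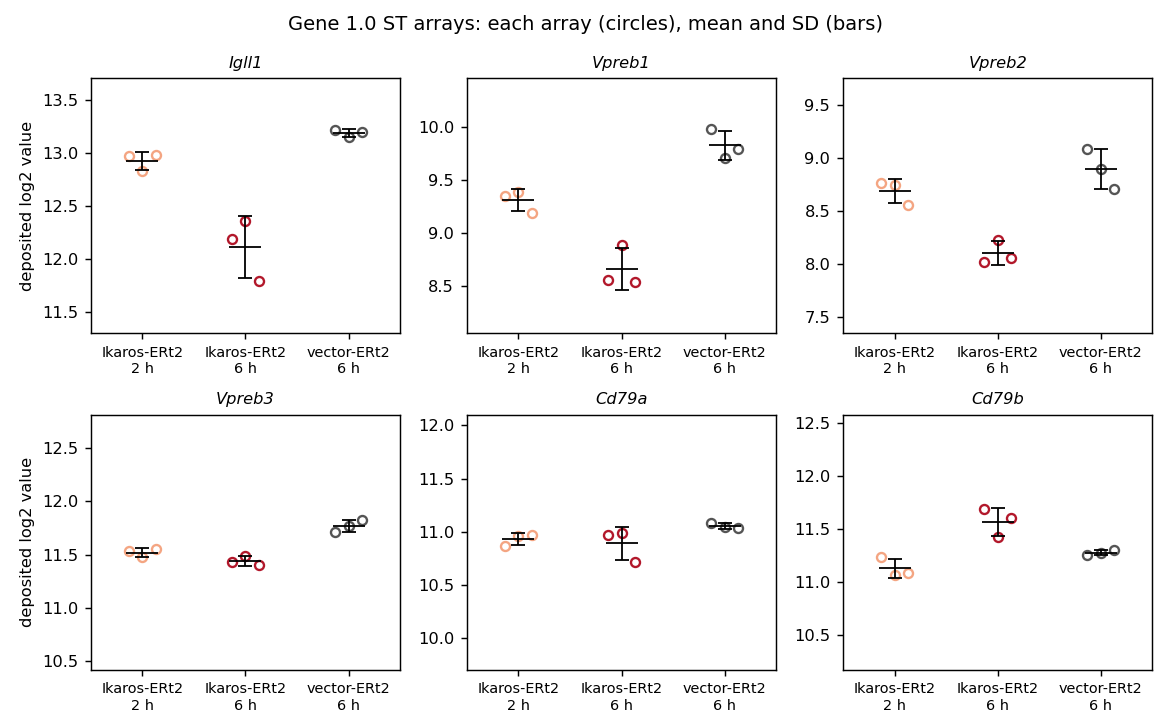
Deposited log2 values (y axis) of the 6 genes on the 9 Gene 1.0 ST arrays, by group (x axis), with circles for arrays and bars for the mean and SD; each panel spans the same 2.4 log2 units around its own centre. The 6 h arrays of Igll1, Vpreb1 and Vpreb2 are below all others, and those of Cd79b are above all others.

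At 48 h, Vpreb1 (1449869_at) read 11.25 and 10.40 in Ikaros cells, against 14.76 and 14.72 in 159A cells. The change was -3.92 ± 0.36, a 15.1-fold lower value (limma, adjusted p = 0.0313). The 2 Ikaros arrays differed by more than the 159A arrays, with an SD of 0.60 against 0.03. The probe set that names both Vpreb1 and Vpreb2, 1422416_s_at, read 6.70 and 6.97 in Ikaros cells, against 12.37 and 12.16 in 159A cells. In a fit of 21534 named probe sets, of which 9.39% passed, its change was -5.43 ± 0.15, a 43.1-fold lower value (limma, adjusted p = 0.0226). That fit was added after the data were seen, because Vpreb2 has no probe set of its own on this array type. Without 1 array at a time, the Vpreb1 change was -4.35 to -3.49 at an adjusted p of 0.0807 to 0.224.

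Vpreb3 showed small differences. It read 11.53, 11.47 and 11.55 in Ikaros-ERt2 cells at 2 h and 11.43, 11.49 and 11.40 at 6 h, against 11.71, 11.77 and 11.83 in vector-ERt2 cells. Both Ikaros-ERt2 groups were below the vector group and overlapped each other. The change was -0.25 ± 0.07 at 2 h (limma, adjusted p = 0.0869) and -0.33 ± 0.07 at 6 h, a 1.26-fold lower value (limma, adjusted p = 0.0133). The 6 h call was lost without replicate 1 of the 6 h group (limma, adjusted p = 0.0554) or replicate 3 of the vector group (0.0539). The 6 h over 2 h step was -0.08, with a 95% interval of -0.22 to 0.06. At 48 h, Vpreb3 read 10.33 and 11.31 in Ikaros cells, against 10.61 and 11.19 in 159A cells. The groups overlapped, and the change of -0.08 ± 0.48 had a 95% interval of -1.68 to 1.52 (limma, adjusted p = 0.965).

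**Figure D3:**
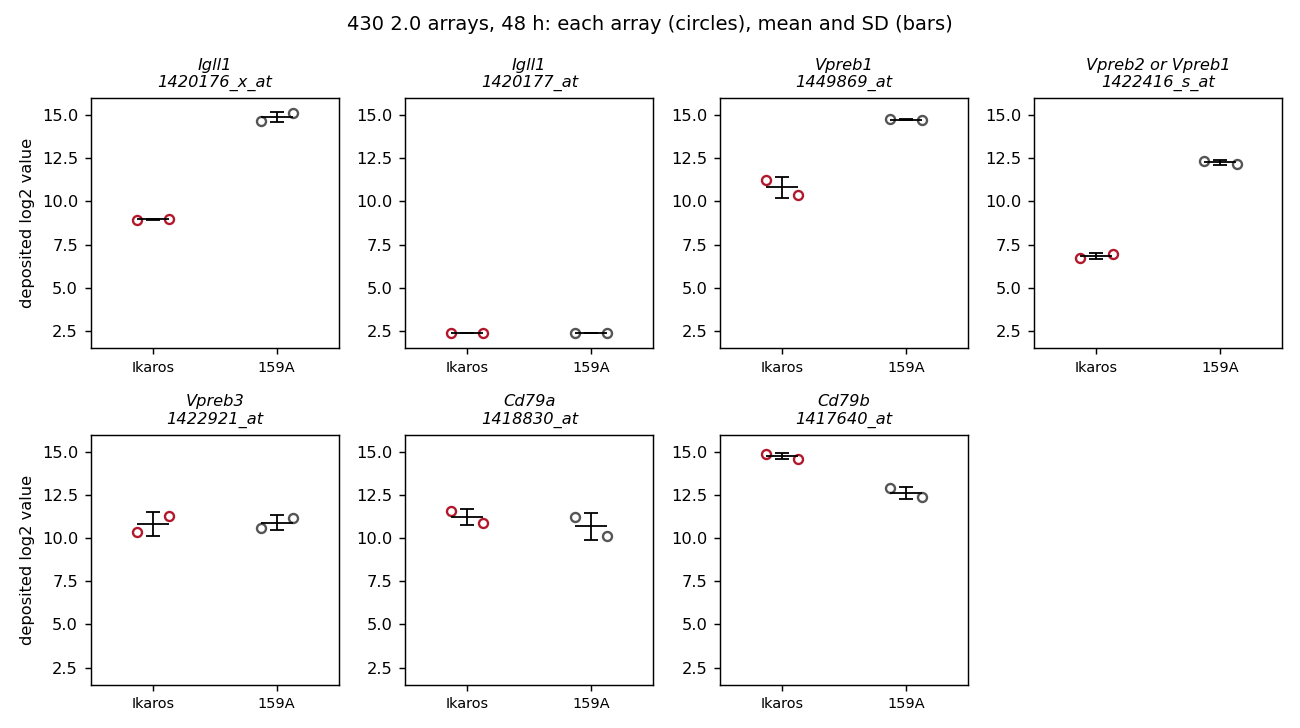
Deposited log2 values (y axis) of the 7 probe sets on the 4 arrays of the 430 2.0 type at 48 h, Ikaros left and 159A right, with circles for arrays and bars for the mean and SD. Igll1 1420176_x_at, Vpreb1 and the probe set shared by Vpreb2 and Vpreb1 are lower in Ikaros cells, Cd79b is higher, and Vpreb3 and Cd79a overlap.

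Cd79a passed no test. It read 10.87, 10.96 and 10.97 in Ikaros-ERt2 cells at 2 h and 10.97, 10.99 and 10.71 at 6 h, against 11.08, 11.04 and 11.03 in vector-ERt2 cells. Every Ikaros-ERt2 array was below every vector array, by a small step. The change was -0.12 ± 0.08 at 2 h (limma, adjusted p = 0.57) and -0.17 ± 0.08 at 6 h (limma, adjusted p = 0.336), with a 95% interval of -0.35 to 0.02 at 6 h. At 48 h Cd79a read 11.55 and 10.90 in Ikaros cells, against 11.25 and 10.14 in 159A cells. These overlapped, and the change of 0.53 ± 0.55 had a 95% interval of -1.28 to 2.34 (limma, adjusted p = 0.574), an interval that holds the change found for Cd79b.

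Cd79b, the partner of Cd79a in the same heterodimer, was the one gene of the 6 to pass a test as higher. It read 11.24, 11.07 and 11.09 in Ikaros-ERt2 cells at 2 h and 11.69, 11.43 and 11.60 at 6 h, against 11.26, 11.28 and 11.30 in vector-ERt2 cells. The 2 h arrays were all just below the vector arrays and the 6 h arrays all above them. The change was -0.15 ± 0.08 at 2 h (limma, adjusted p = 0.46) and 0.29 ± 0.08 at 6 h, which missed the threshold (limma, adjusted p = 0.0636). The 6 h over 2 h step of 0.44 ± 0.08 passed (limma, adjusted p = 0.0354), the 67th highest of 11963 genes. Without replicate 2 of the 6 h group the 6 h change passed too (limma, adjusted p = 0.0253), while the step held its call in that 1 of 9 fits without an array, and the others gave 0.0697 to 0.127. At 48 h Cd79b read 14.86 and 14.61 in Ikaros cells, against 12.88 and 12.36 in 159A cells. The change of 2.12 ± 0.25 is a 4.34-fold higher value (limma, adjusted p = 0.0393). In the fit of 20975 probe sets of 1 gene, 9.16% of which passed, the adjusted p of Cd79b was 0.0527, which misses the threshold, whereas Igll1 (0.0229) and Vpreb1 (0.0418) passed. Without 1 array at a time the change was 1.86 to 2.38 at an adjusted p of 0.128 to 0.199.

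**Figure D4:**
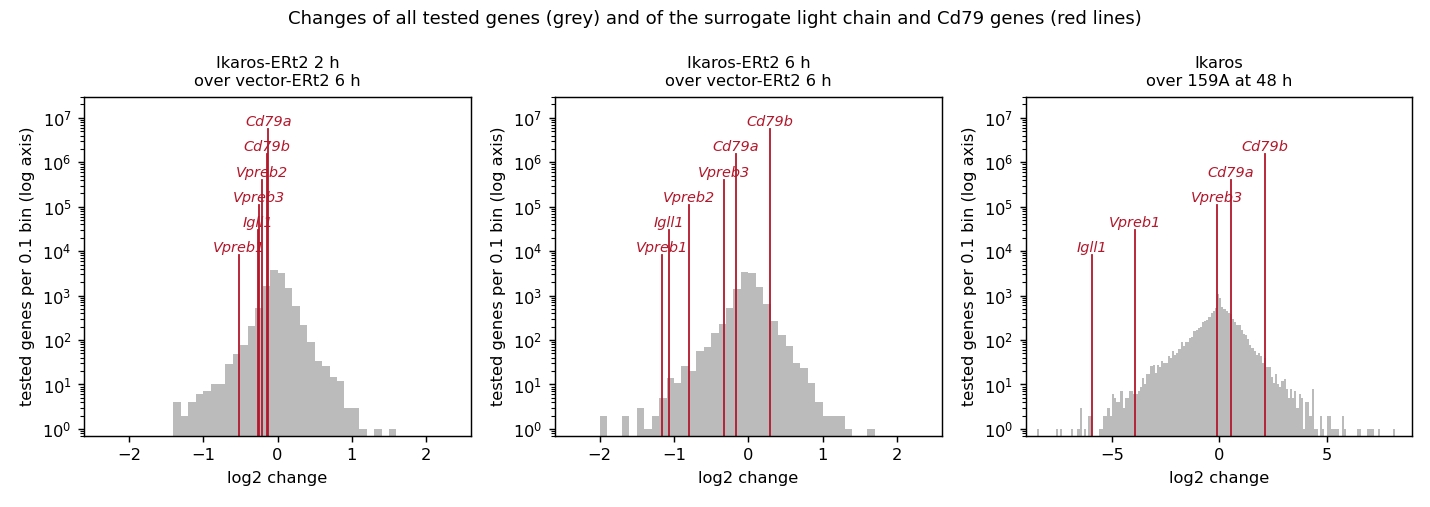
Number of tested genes (y axis, log scale) by log2 change (x axis, bins of 0.1) in 3 comparisons, with a red line at the change of each of the 6 genes; the heights of the red lines only separate the names. At 6 h Vpreb1, Igll1 and Vpreb2 lie in the lower tail as the 11th, 20th and 67th lowest of 11963 genes, and at 48 h Igll1 is the 13th and Vpreb1 the 82nd lowest of 10916.

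Within an array, the distance between a surrogate light chain gene and a signalling chain gene leaves out shifts that touch all genes of that array. At 6 h, Igll1 minus Cd79a was 1.23 ± 0.15 in Ikaros-ERt2 cells and 2.14 ± 0.03 in vector-ERt2 cells (log2, SD, n = 3 each), a change of -0.91. Igll1 minus Cd79b changed by -1.37. Vpreb1 minus Cd79b was -2.92 ± 0.32 in Ikaros-ERt2 cells and -1.46 ± 0.15 in vector-ERt2 cells, also a change of -1.46, and the change of Vpreb1 minus Cd79a lay between these values. In all 4 pairs the 6 h and vector arrays did not overlap, and the two-sided exact permutation p of each was 0.1, the smallest that 3 against 3 arrays allow. At 2 h the pairs with Igll1 changed by -0.14 (Cd79a) and -0.11 (Cd79b) at an exact permutation p of 0.2, and those with Vpreb1 by -0.40 and -0.37 at 0.1, all 0.2 after Benjamini-Hochberg adjustment over the 4 pairs. The 6 h over 2 h changes ran from -0.60 for Vpreb1 minus Cd79a to -1.25 for Igll1 minus Cd79b, each at an exact p of 0.1. At 48 h, where an exact test of 2 against 2 arrays cannot go below 0.333, they ran from -4.45 to -8.04 for the same pairs, and no pair overlapped between groups. The pairs reuse the same genes, and Igll1 and Vpreb1 had already passed as lower at 6 h and 48 h. The 4 pairs are therefore not separate observations, and how often other gene pairs overlapped was not counted. Unequal change in a pair does not show that either gene stayed the same.

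Igll1 and Vpreb1 are adjacent on chromosome 16, Vpreb2 lies elsewhere on it, and Vpreb3, Cd79a and Cd79b are on chromosomes 10, 7 and 11. The 3 nearest tested protein-coding genes on each side were examined, 30 genes on each array type. At 6 h, 3 of 30 passed (10.0%, against 5.78% of all genes): Ppm1f, a protein phosphatase gene beside Igll1 and Vpreb1, was lower, and Icam2, a cell adhesion gene, and Ern1, a sensor of endoplasmic reticulum stress, both beside Cd79b, were higher. Their changes were -0.52 (limma, adjusted p = 0.0133), 0.40 (0.0114) and 0.35 (0.0308), smaller in size than those of the surrogate light chain genes. Those of Icam2 and Ern1 were larger than that of Cd79b itself, 0.29 (limma, adjusted p = 0.0636), which did not pass. The difference between Cd79b and these neighbours was not tested. Top3b, the gene next to Vpreb1 among those tested, changed by -0.32 (limma, adjusted p = 0.0768). At 48 h, 4 of 30 passed, a share of 13.3% near the 14.8% of all genes: Ppm1f changed by -0.64 (limma, adjusted p = 0.0331), Ypel1 on the same side by 3.02 (0.0227), Dgcr6 beside Vpreb2 by -0.86 (0.0494) and Chchd10 beside Vpreb3 by -1.88 (0.0274). Icam2 and Ern1 did not pass at 48 h, with changes of 1.17 (limma, adjusted p = 0.0811) and 2.57 (0.101), against 2.12 for Cd79b. By limma's adjusted p, 0 of the 30 passed at 2 h and 0 in the 6 h over 2 h step, where 8 and 2 were at an unadjusted p under 0.05. The median change of the neighbours was -0.06 at 6 h and -0.32 at 48 h.

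**Figure D5:**
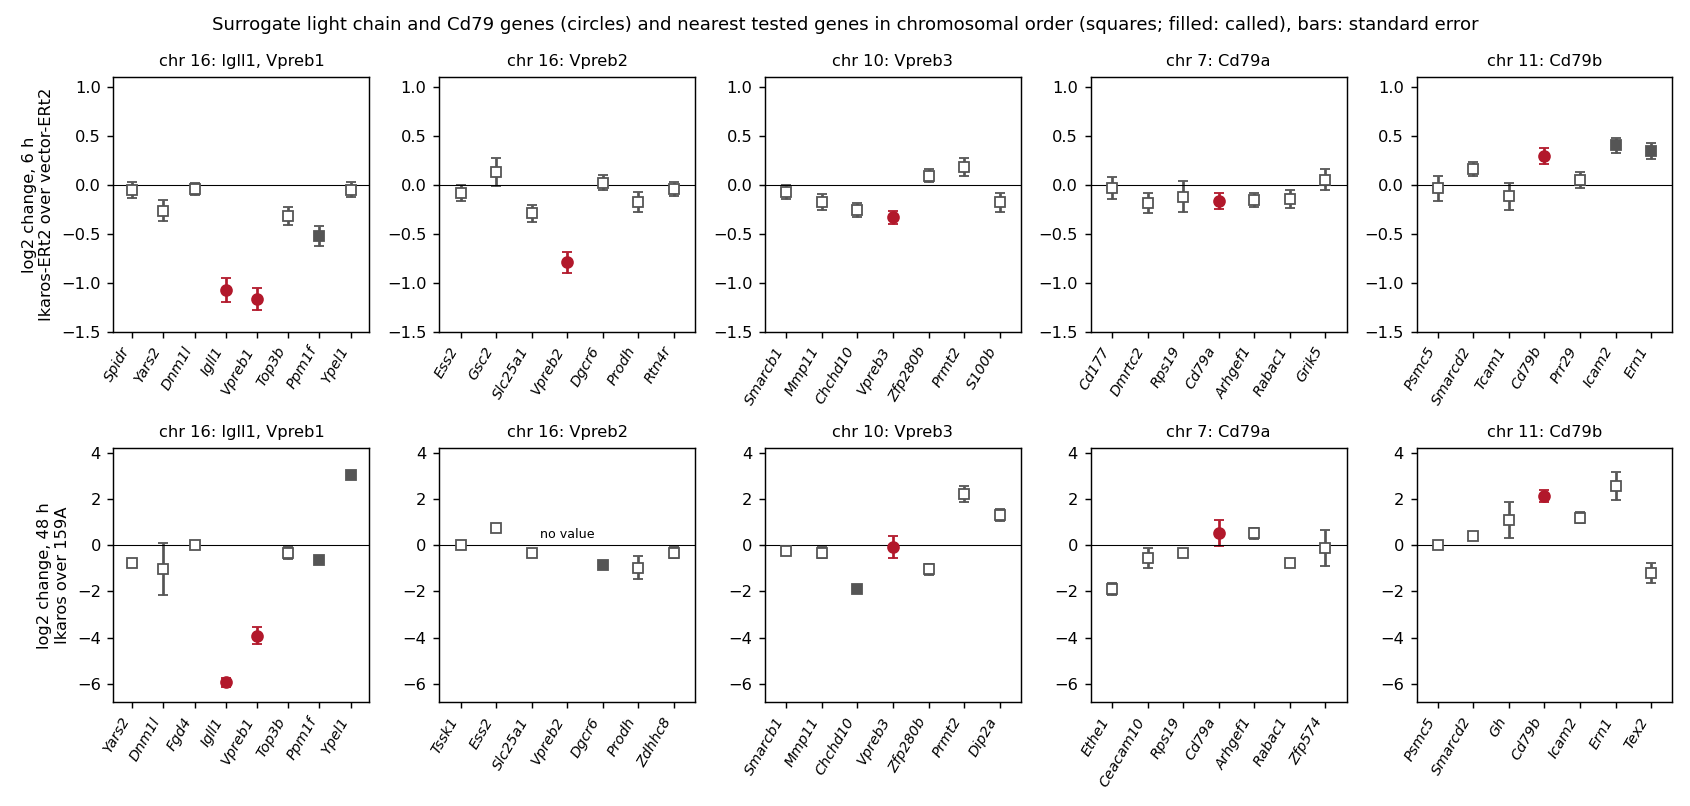
Log2 change (y axis, standard error as bars) of the 6 genes (circles) and of their nearest tested neighbours in chromosomal order (squares, filled where the adjusted p was under 0.05), at 6 h above and at 48 h below; distances are not to scale. At 6 h Igll1 (-1.07) and Vpreb1 (-1.17) lie far below Ppm1f (-0.52) and Top3b (-0.32), and at 48 h the third gene past Vpreb1, Ypel1, is at 3.02.

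Genes that act downstream of the receptor were read from a list of 26, of which 21 were tested on each array type. At 6 h, 1 rose and 5 fell, 28.6% of the 21 against 5.78% of all genes. Blnk, the adaptor that links the receptor to phospholipase C, fell by 0.94 (limma, adjusted p = 0.00373) and Pik3ap1, an adaptor for PI3-kinase, fell by 0.90 (0.00532). The phosphatase genes Inpp5d, which encodes SHIP1, and Ptpn6, which encodes SHP-1 and restrains receptor signals, fell by 0.53 (limma, adjusted p = 0.00186) and 0.49 (0.012). At 2 h, where 4.76% of the list passed against 1.86% of all genes, Inpp5d fell by 0.54 (limma, adjusted p = 0.00452), and 0 rose, with 2 higher at an unadjusted p under 0.05 by limma. In the 6 h over 2 h step Dok3, an inhibitory adaptor, was higher by 0.56 (limma, adjusted p = 0.0168), 1 of 21 genes against 0.903% of all. At 48 h, 4 were higher and 0 lower in Ikaros than in 159A cells by limma's adjusted p, with 7 higher and 2 lower at an unadjusted p under 0.05. The 4 are 19.0% of the list, against 14.8% of all genes in either direction and 6.38% higher. Syk, the kinase that binds the phosphorylated tails of CD79a and CD79b, changed by 1.96 (limma, adjusted p = 0.0327), the scaffold gene Bank1 by 2.09 (0.0347), Dok3 by 1.80 (0.0244) and Prkcb, a protein kinase C, by 1.62 (0.046). None of the genes named as lower at 6 h passed at 48 h. There Blnk changed by 2.08 (limma, adjusted p = 0.18), Pik3ap1 by -1.85 (0.0694), Inpp5d by -0.25 (0.794) and Ptpn6 by -0.06 (0.664). The median change of the list was -0.09 at 2 h, 0.02 at 6 h and 0.28 at 48 h. For the list as for the 6 genes, the arrays at 6 h and 48 h differ in construct, control and array type, and the difference between those times was not tested.

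Among 17 transcription factors of the B lineage, 16 were tested on the Gene 1.0 ST array. At 6 h, 3 rose and 3 fell, 37.5% of the list against 5.78% of all genes. This count and share include the transduced Ikzf1, whose rise was set by the construct. Beside the transduced Ikzf1 itself, Foxo1 rose by 0.85 (limma, adjusted p = 0.00201), while Irf4, which with Irf8 is known to lower surrogate light chain expression in mouse pre-B cells, fell by 0.69 (0.00132) and Lef1, a factor of the Wnt pathway, by 0.84 (0.0017). Irf4 was dim, at 5.06 at 6 h against 5.75 in vector-ERt2 cells. The filter on low genes, applied to the mean over all arrays, cut at 5.10. Irf8 changed by 0.25 at 6 h and did not pass (limma, adjusted p = 0.551). At 2 h, 3 rose and 1 fell, 25.0% against 1.86%, again with the transduced Ikzf1 counted. Beside Ikzf1, Sox4 rose by 0.75 (limma, adjusted p = 0.00764) and Foxo1 by 0.67 (0.0175), and Irf4 fell by 0.41 (0.0424). In the 6 h over 2 h step 12.5% passed, against 0.903% of all genes. Ebf1, which activates Igll1, Vpreb1 and Cd79a in B-cell progenitors, was higher by 0.57 (limma, adjusted p = 0.0375), and Sox4 was lower, at -0.63 (0.03). At 48 h, 6 of 17 were higher and 0 lower by limma's adjusted p, with 7 higher and 1 lower at an unadjusted p under 0.05. The 6 are 35.3% of the list, against 14.8% of all genes in either direction and 6.38% higher. The 4 with the smallest p were Spib, which changed by 3.10 (limma, adjusted p = 0.0194), Pax5, the factor of B-lineage commitment, by 1.25 (0.0201), Sox4 by 1.66 (0.0233) and Ets1 by 2.88 (0.0272). The list medians were -0.02 at 2 h, 0.15 at 6 h and 0.50 at 48 h.

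Markers of other cells were read beside these results. On the 430 2.0 array the mean log2 value of the 6 B-lineage markers was 13.05 to 13.09 in Ikaros cells against 12.06 to 12.21 in 159A cells, and the summary of 4 plasma cell genes was 5.96 to 6.01 against 4.65 to 4.80. Of the plasma cell genes, Jchain was at 8.20 in Ikaros cells and near the lowest value of the array type, at 2.62, in 159A cells, Xbp1 was at 11.36 against 11.87, and Sdc1 and Prdm1 were near or at the lowest value in both. On the Gene 1.0 ST array the plasma cell summary was 5.37 to 5.41 at 2 h and 5.42 to 5.51 at 6 h, against 5.43 to 5.50 in vector cells. The part of these markers in the results was not tested. On the 430 2.0 array the summaries of 6 T cell, 6 myeloid, 2 erythroid and 4 fibroblast genes were 2.21 to 3.64 in both groups, with 2, 2, 1 and 0 of their genes above the filter. The myeloid gene Lyz2 was at 2.65 in Ikaros cells, near the lowest value, and at 4.39 in 159A cells (limma, adjusted p = 0.0672). The defining T cell gene Cd3e and the fibroblast gene Col1a1 were at the lowest value there. On the Gene 1.0 ST array, Cd3e was above the filter, at 5.81 at 2 h and 5.76 at 6 h, against 5.70 in vector cells, and so were 3 of 4 fibroblast genes, 0 of 6 myeloid genes and 0 of the 1 erythroid gene measured. The fibroblast summary was 5.63 to 5.83 at 2 h and 5.68 to 5.92 at 6 h, against 5.77 to 5.84 in vector cells.

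The tested genes whose values ran most like those of each gene over the 9 Gene 1.0 ST arrays were taken from 495 genes whose group means spanned at least 0.5 log2 units, which include Igll1, Vpreb1 and Vpreb2 but not Vpreb3, Cd79a or Cd79b. These are descriptions of arrays that share their groups. Igll1 ran closest with Pus7 (Pearson r = 0.988), Trmt61a (0.988) and Smyd5 (0.985), and Vpreb1 with Mogs (0.986), Dusp12 (0.979) and Dph5 (0.978). Vpreb2 ran closest with Pnp (0.984), Vpreb1 (0.960) and Grwd1 (0.957). For Vpreb3 they were Jak1 (0.969), Tbrg1 (0.967) and 2900026A02Rik (0.966). For Cd79a, whose group means spanned 0.17 log2 units, they were Ptgir (0.902), Pprc1 (0.891) and Mir18 (0.867). Cd79b ran closest with Ebf1 (0.889), Trp53inp2 (0.877) and Slc43a2 (0.851). Ebf1 averaged 9.63 at 2 h and 10.21 at 6 h, against 9.89 in vector-ERt2 cells, which is the order of Cd79b.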

How the data were processed

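The deposited files hold log2 values, 1 per probe set and array, which the authors computed before deposit. Per the submitters' processing notes the tools were affy, GCRMA, RMA and limma, with no version or role, and no other setting is stated. Per the labels' protocols, RNA was amplified with a two-cycle kit for the 430 2.0 arrays and a whole-transcript kit for the Gene 1.0 ST arrays. The types were normalized apart, so each was tested alone. GCRMA and RMA set low values close to a floor, so changes of dim genes have no exact size. Array number, not read depth, limits the precision here.

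Probe sets were named through GEO's platform annotation. For each gene the probe set with the highest mean stood for it, and the lowest 40% of genes were not tested. Comparisons used limma 3.58.1 in R 4.3.3 (lmFit, eBayes, two-sided, Benjamini-Hochberg over all tested genes, threshold 0.05); the 3 Gene 1.0 ST comparisons came from 1 fit of 9 arrays. Each log2 change carries the standard error of its fit. Distances between genes on an array were compared by exact permutation, and the fit was tested on simulated data. The genes, lists and tests were chosen with earlier results of these data known. Named genes were the 6 genes, Ikzf1, up to 4 called genes per list and comparison with the smallest p, called neighbours and the 3 most similar genes. Top3b, Irf8 and the genes named for their marker values were chosen after their values were seen. Alternatives were other filters, quantile normalization again, centring, trend and robust eBayes, the mean of probe sets, only the 2 groups compared, a replicate block and leaving out each array. Replicate numbers do not mark shared cultures in the labels. Deviations of same-numbered arrays correlated at -0.26 to 0.24 on the Gene 1.0 ST array. At 48 h, where 2 arrays a group give a single value up to its sign, they correlated at 0.57, against -0.57 for arrays of unlike number. Whether same-numbered arrays at 48 h share a batch was not tested. Any shift they share stays in the standard errors of the reported fit. No pairing was assumed. Promoter stretches are from RefSeq (GRCm38.p6), which gave 5 of the 6 genes. Cd79b had no entry.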

Additional observations from a re-analysis of the deposited data

Results flagged for a closer look

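For 4 of the 6 genes, the change against the same vector arrays differed between 6 h and 2 h of 4-hydroxytamoxifen. Of all genes tested, 0.903% did. The test was the 6 h over 2 h contrast of the fit, from which the shared vector arrays cancel out. Without vector samples at 2 h, an effect of Ikaros and one of exposure time alone cannot be told apart in it. The 6 h change minus the 2 h change was -0.81 for Igll1, -0.65 for Vpreb1, -0.59 for Vpreb2 and 0.44 for Cd79b (log2; limma, adjusted p = 0.0183, 0.0282, 0.03 and 0.0354). In a fit of only these groups 0 of the 6 genes passed, and without 1 array at a time the call held in 6 of 9 fits for Igll1, 2 for Vpreb1, 3 for Vpreb2 and 1 for Cd79b. In each of these 4 genes, the 3 arrays at 6 h lay on 1 side of the 3 arrays at 2 h. The 4 genes were picked by this same contrast, so this separation is no further support. Its share over all genes was not counted. For Vpreb3 and Cd79a the difference was -0.08 and -0.04 (limma, adjusted p = 0.67 and 0.883).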

How the results depend on the processing

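At 6 h, the calls of Igll1, Vpreb1 and Vpreb2 held in all 17 alternatives, at an adjusted p (limma, here and below) of at most 0.0104. Counts of all genes passing at 6 h were 335 to 714 without 1 array at a time, and 3 to 5 of the 6 genes passed. At 48 h, 1621 genes passed in the reported fit, 185 with no filter, 2437 with each array centred on its median, 0 with the replicate number as a block (4493 at an unadjusted p under 0.05) and 0 without any 1 array; of the 5 genes, 3, 1, 3, 0 and 0 passed. Under the replicate block the change of Igll1 stayed at -5.92, at an adjusted p of 0.0554. The reported fit had 3674 genes at an unadjusted p under 0.05, fewer than under the block. With 4 arrays the block leaves fewer degrees of freedom for the spread, so 0 genes passing there does not show that changes are absent. The replicate numbers do not pair samples in the labels. On the Gene 1.0 ST array the block changed no call of the 6 genes. Centring shifted the median 48 h change of all genes by 0.11 and turned Vpreb3 to 0.0254; without 1 array Vpreb3 lay between -0.57 and 0.41 and Cd79a between -0.024 and 1.08. At 2 h, 223 genes passed, 141 with no filter (0 of the 6) and 82 to 269 without 1 array (0 to 1 of the 6). In the 6 h over 2 h step 108 passed, 59 with no filter (2 of the 6), 9 to 149 without 1 array (0 to 4) and 0 in a fit of only these groups (0 of the 6; 1301 genes at an unadjusted p under 0.05), a fit with fewer arrays. Cd79a in this step was 0.0167 after quantile normalization again and -0.0933 to 0.0452 without 1 array. At 6 h, Cd79b passed with the 60% filter (0.0461), quantile normalization again (0.0447) and trend and robust eBayes (0.045). With the mean of both Igll1 probe sets, its 48 h distance to Cd79a and Cd79b changed by -3.49 and -5.08 in place of -6.45 and -8.04, since the dim probe set enters the mean. Small changes at 48 h are limited by 4 arrays and those of dim probe sets by the floor.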
